A study of Mus musculus with 10 samples.

Results

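Ligands of the tumour necrosis factor (TNF) family were followed in mouse lymphoma B cells with and without a floxed Il10 gene and in germinal centre B cells without lymphoma. The 8 genes Tnf, Lta, Ltb, Cd70, Tnfsf4, Tnfsf8, Tnfsf9 and Tnfsf10 were taken by name from a count table of 46316 genes, in all 10 libraries. Poly(A) RNA came from spleen cells of C57BL/6 mice sorted for B220 and a fluorescent reporter. The pBIC10 group (n = 3, from 2 females and 1 male) carried p53F/F and Blimp1F/F together with IKK2castopF/stopF, with Cg1Cre/+ and with IL-10F/F, and is labelled as an ABC-DLBCL model lacking IL-10 (a lymphoma of large B cells resembling activated ones). The pBIC group (n = 3, all from females) had the same alleles except IL-10F/F and models the same lymphoma. The YC group (n = 4, from 3 females and 1 male) had the genotype YFPstopF/+ Cg1Cre/+, and its cells were sorted from immunised mice on day 10 after a second dose of sheep red blood cells, which followed the first dose by 20 days. All 3 groups carry Cre in the Cγ1 locus, whose activity starts around germinal centre entry and does not cover every B cell. In both lymphoma groups that Cre targets the p53 and Blimp1 genes and frees a constitutively active IKK2 kinase from its stop cassette, and their spleens came from moribund mice. For YC some labels carry lymphoma wording (GFP, moribund mice), and the series design was followed instead.

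TNF family ligands are mostly trimeric proteins held in the cell membrane, some of which are shed, and they signal through receptors of the TNF receptor family. TNF and lymphotoxin made by B cells keep up the follicular stroma of the spleen, whereas CD70 and the products of Tnfsf4, Tnfsf8 and Tnfsf9 act mainly as costimulators of T cells. Many of these genes are targets of NF-κB, the pathway that IKK2 activates.

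Libraries held 12.59 to 19.13 M counts, and 3 counts in a library correspond to 0.154 to 0.246 CPM (counts per M). Il10 itself was read at 2.71, 1.99 and 4.77 CPM in pBIC10 libraries, at 19.4, 6.84 and 8.78 CPM in pBIC libraries and at 4.23, 7.45, 7.15 and 9.98 CPM in YC libraries. It was lower in pBIC10 than in pBIC, with no overlap, by a log2 fold change of -1.88 ± 0.464 (adjusted p = 0.00809, edgeR). Which part of Il10 the floxed allele removes is not given in the sources used here, so counts over the whole gene do not measure its deletion. Libraries of pBIC and of YC are marked as re-analysed from an earlier series, so that in both comparisons of pBIC10 the series and the genotype cannot be told apart. Ighv7-3 held 67.4 to 70.5% of heavy-chain variable segment counts in the pBIC10 libraries and Ighv8-11 held 51.6 to 59.1% in the pBIC libraries, whereas the leading segment differed among the YC libraries and held 3.73 to 10.9%. The libraries of a lymphoma group thus share a leading segment, which touches every p-value given here: it measures the spread among such libraries, and the lymphoma and the genotype cannot be told apart. B cell markers summed to 2300 to 3790 CPM in pBIC10, 1300 to 2810 CPM in pBIC and 6110 to 7600 CPM in YC libraries. Bcl6, which encodes the master regulator of germinal centre B cells, averaged 4.65 ± 0.99 CPM in pBIC10, 6.01 ± 3.03 CPM in pBIC and 225.4 ± 70.8 CPM in YC libraries, and the germinal centre receptor gene S1pr2 averaged 20.2 ± 9.16 CPM in pBIC10, 5.27 ± 3.47 CPM in pBIC and 172.9 ± 38.2 CPM in YC libraries. Both were lower in each lymphoma group than in YC (adjusted p for pBIC10 6.76e-07 for Bcl6 and 0.000149 for S1pr2, and for pBIC 1.02e-06 for Bcl6 and 1.25e-05 for S1pr2, edgeR).

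The genes of TNF, both lymphotoxin chains and the costimulators Cd70 and Tnfsf9 were lower in pBIC10 than in pBIC lymphoma cells. Of the 7 ligand genes with enough counts for the test across all genes, 5 fell (Tnf, Lta, Ltb, Cd70 and Tnfsf9) and 0 rose at an adjusted p under 0.05 in edgeR's quasi-likelihood test. All 7 estimates were below 0 in edgeR, DESeq2 and limma-voom, so that 0 rose at an unadjusted p under 0.05 as well. Of all 17718 genes tested, 30.7% were called in that comparison, and 15.1% of all genes were called lower. The median log2 fold change of the 7 genes was -2.12, beside -0.0071 over all genes tested. Counting Tnfsf4 as well, 6 of the 8 genes had all pBIC10 libraries below all pBIC libraries and 2 overlapped. Among the 7 tested genes 5 did not overlap, and 41.8% of all tested genes did not overlap. In bulk RNA, fewer expressing cells and less RNA per cell cannot be told apart.

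In pBIC10 against YC, 5 of the 7 tested ligand genes fell (Tnf, Lta, Cd70, Tnfsf8 and Tnfsf9) and 0 rose, where 51.7% of all genes were called and 26.9% were called lower. Here too all 7 estimates were below 0 in edgeR, DESeq2 and limma-voom. Their median log2 fold change was -2.96, beside 0.0099 over all genes. In pBIC against YC, 2 genes fell (Lta and Tnfsf8) and 2 rose (Ltb and Cd70), where 54.1% of all genes were called, 26.4% higher and 27.7% lower. The median of the members there was -0.03, beside 0.02 over all genes. That count of 4 was 2 without pBIC replicate 2, without YC replicate 3 or without YC replicate 4. Without overlap, 5 of the 7 tested genes stood apart in pBIC10 against YC and 4 in pBIC against YC, where 61.0% and 54.2% of all tested genes did. Both comparisons with YC use the same YC libraries, so their values are given side by side and are not independent of each other.

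**Figure D1:**
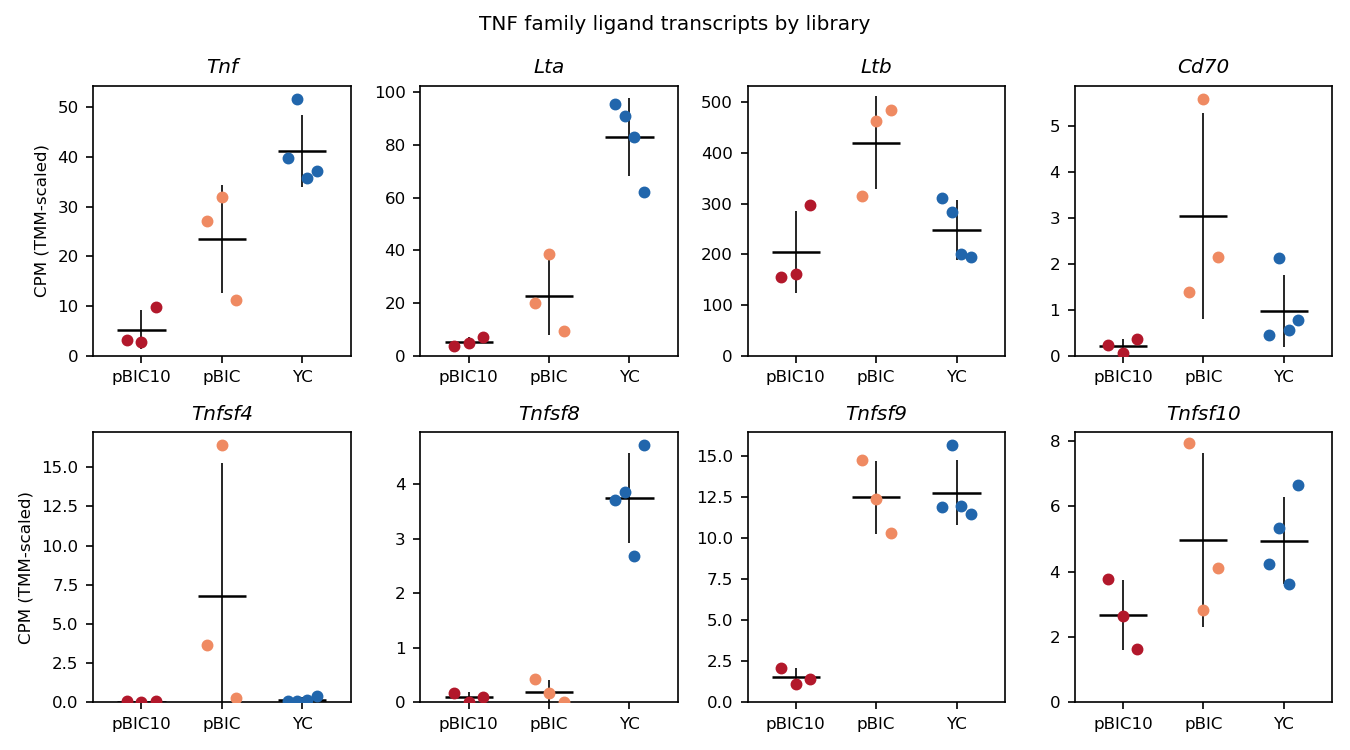
CPM of the 8 ligand genes in each library of pBIC10, pBIC and YC, 1 panel per gene with its own axis from 0; points are libraries, bars are mean ± SD with the lower end cut at 0. Tnfsf9 lies at 1.11 to 2.12 CPM in the 3 pBIC10 libraries and above 10 CPM in all pBIC and YC libraries, and Tnfsf4 is high in 2 of the 3 pBIC libraries only.

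**Figure D2:**
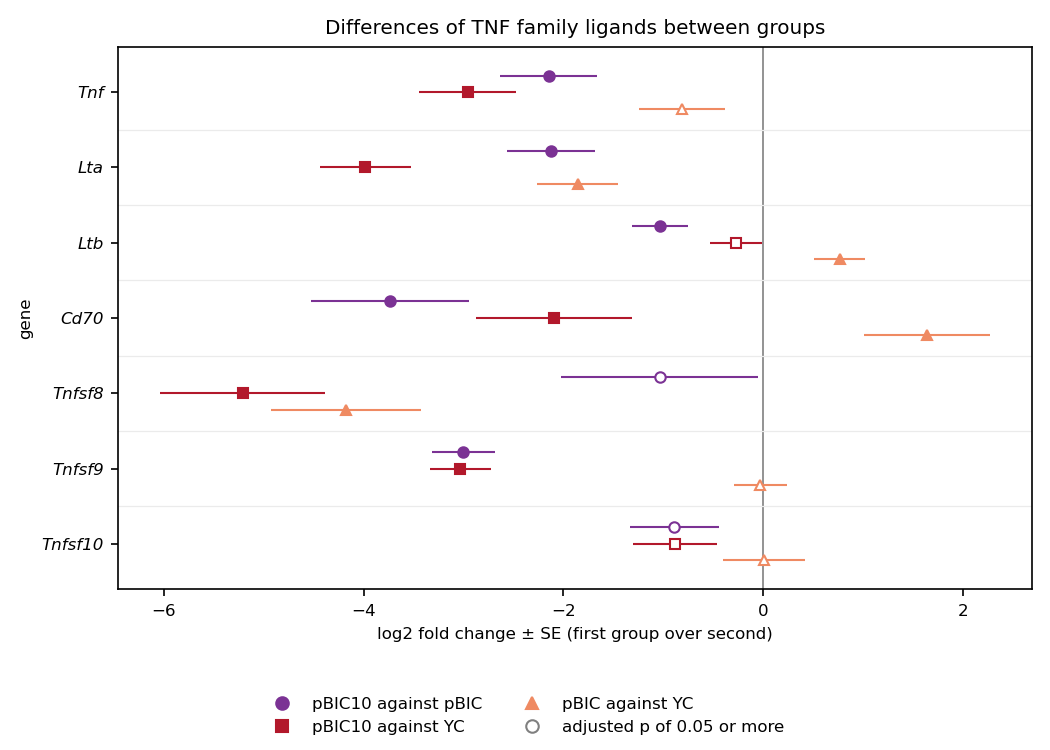
Log2 fold change ± SE of the 7 tested ligand genes in pBIC10 against pBIC, pBIC10 against YC and pBIC against YC; filled points have an adjusted p under 0.05 and open points do not. Every pBIC10 estimate lies below 0, and those of pBIC against YC lie on both sides of it, with Cd70 at 1.64 and Tnfsf8 at -4.17.

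Tnf, Lta and Ltb lie next to each other on chromosome 17. Their promoters are shown because all 3 genes fell together in pBIC10 against pBIC. Both lymphoma models also carry the allele of active IKK2, a kinase that activates NF-κB. Whether κB sites play a part in the ligand differences was not tested. Each run covers 250 bases before to 50 bases after the start of transcription, from RefSeq on GRCm38.p6, 5′ to 3′ on the gene's strand. Capitals mark matches to the κB motif GGGNNNNNCC on either strand. The windows are chr17:35201958-35202257 (minus strand) for Tnf, chr17:35205302-35205601 (minus strand) for Lta and chr17:35194257-35194556 (plus strand) for Ltb.
Tnf: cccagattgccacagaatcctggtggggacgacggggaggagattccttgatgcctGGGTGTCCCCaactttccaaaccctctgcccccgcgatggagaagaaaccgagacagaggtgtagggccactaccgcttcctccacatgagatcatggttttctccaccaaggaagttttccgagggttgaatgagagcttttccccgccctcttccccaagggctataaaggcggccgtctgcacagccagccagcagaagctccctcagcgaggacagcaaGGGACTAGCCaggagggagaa
Lta: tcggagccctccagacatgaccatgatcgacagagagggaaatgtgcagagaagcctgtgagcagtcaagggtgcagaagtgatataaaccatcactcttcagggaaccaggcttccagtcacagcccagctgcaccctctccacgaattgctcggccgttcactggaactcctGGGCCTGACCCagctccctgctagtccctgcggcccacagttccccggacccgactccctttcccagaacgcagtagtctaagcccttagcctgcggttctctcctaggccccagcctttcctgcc
Ltb: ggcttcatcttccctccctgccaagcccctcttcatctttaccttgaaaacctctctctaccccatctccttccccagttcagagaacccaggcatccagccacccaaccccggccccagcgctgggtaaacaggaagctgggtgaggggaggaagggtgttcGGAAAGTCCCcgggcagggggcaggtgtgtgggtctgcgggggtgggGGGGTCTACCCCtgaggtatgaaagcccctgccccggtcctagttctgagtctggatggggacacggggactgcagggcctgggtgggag
The Tnf window held 3 matches, of which 2 are the same place read on both strands, the Lta window 2 overlapping ones and the Ltb window 5, some of them overlapping. One Ltb match, 87 bases before the start, reads GGGACTTTCC on the minus strand. The Tnfsf8 and Tnfsf10 windows held none, and 50.8% of 32851 promoters hold at least 1 match, so a match is common. The AP-1 motif TGANTCA, held by 7.81% of promoters, was found in none of the 5 windows, and neither was GAAANNGAAA, an IRF motif held by 3.44%. Each of the 5 windows held the NFAT core GGAAA, as 61.3% of promoters did.

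Tnf, the founding inflammatory cytokine of the family, was read at 3.19, 2.81 and 9.74 CPM in pBIC10 libraries, at 27.2, 31.8 and 11.2 CPM in pBIC libraries and at 39.8, 51.7, 35.7 and 37.1 CPM in YC libraries. The groups kept the order pBIC10, pBIC, YC with no overlap, although pBIC10 replicate 3 and pBIC replicate 3 lay close together. Tnf was 4.43-fold lower in pBIC10 than in pBIC (log2 fold change -2.15 ± 0.484, adjusted p = 0.00601, edgeR) and 7.78-fold lower than in YC (-2.96 ± 0.482, adjusted p = 0.000365). Without pBIC10 replicate 3, from the male, the log2 fold change was -2.95 against pBIC and -3.76 against YC, and in females alone it was -2.96 against pBIC and -3.82 against YC. In pBIC against YC the log2 fold change was -0.81 ± 0.433, which did not pass (adjusted p = 0.133) although all pBIC libraries lay below all YC libraries. That difference passed when pBIC10 replicate 3 was left out of the shared fit (adjusted p = 0.037).

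Lta encodes lymphotoxin alpha, which is secreted alone or held at the membrane by lymphotoxin beta. It was read at 3.66, 4.80 and 7.18 CPM in pBIC10 libraries, at 20.2, 38.8 and 9.53 CPM in pBIC libraries and at 95.4, 90.8, 82.9 and 62.0 CPM in YC libraries. The groups did not overlap. Lta fell in all 3 comparisons, by 4.36-fold in pBIC10 against pBIC (log2 fold change -2.13 ± 0.436, adjusted p = 0.00348, edgeR), by 15.8-fold in pBIC10 against YC (-3.98 ± 0.453, adjusted p = 3.18e-05) and by 3.63-fold in pBIC against YC (-1.86 ± 0.402, adjusted p = 0.00235). Without pBIC replicate 2, the highest, the first of these was -1.54 (adjusted p = 0.00799).

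Ltb, the membrane anchor of the lymphotoxin complex, was higher in pBIC than in YC, unlike Lta. It gave 155.6, 161.3 and 297 CPM in pBIC10 libraries, 314.7, 462 and 483.8 CPM in pBIC libraries and 311.6, 283, 200.3 and 194.4 CPM in YC libraries. The pBIC libraries lay above all others, and pBIC10 overlapped YC because its replicate 3 was high. Ltb was 2.05-fold lower in pBIC10 than in pBIC (log2 fold change -1.04 ± 0.28, adjusted p = 0.0135, edgeR), a call lost without pBIC10 replicate 1 (adjusted p = 0.0615) or replicate 2 (adjusted p = 0.0634). It was 1.70-fold higher in pBIC than in YC (0.76 ± 0.257, adjusted p = 0.0233), a call lost without pBIC replicate 2 (adjusted p = 0.0597), pBIC replicate 3 (adjusted p = 0.0788), YC replicate 3 (adjusted p = 0.067) or YC replicate 4 (adjusted p = 0.0739). In pBIC10 against YC the value was -0.27 ± 0.261 (adjusted p = 0.402), and it passed without pBIC10 replicate 3, at -0.63 (adjusted p = 0.0483).

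Cd70 and Tnfsf9 are also neighbours on chromosome 17, followed there by Tnfsf14. Tnfsf9, the ligand of the T cell costimulator Tnfrsf9, gave 2.12, 1.11 and 1.44 CPM in pBIC10 libraries, 14.8, 12.4 and 10.3 CPM in pBIC libraries and 11.9, 15.7, 11.95 and 11.5 CPM in YC libraries. All pBIC10 libraries were low, and pBIC and YC overlapped. Tnfsf9 was 8.0-fold lower in pBIC10 than in pBIC (log2 fold change -3.0 ± 0.314, adjusted p = 1.94e-05, edgeR) and 8.17-fold lower than in YC (-3.03 ± 0.305, adjusted p = 6.54e-06). In pBIC against YC it differed by -0.03 ± 0.263 (adjusted p = 0.931). Of 1290 exon bases of Tnfsf9 in the reference annotation, 192 are shared with the predicted gene Gm11110 on the opposite strand, and whether the counting used strand is not given, so reads from both cannot be told apart there.

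CD70, the ligand of CD27, is induced on activated lymphocytes. Cd70 was scarce, with 4, 1 and 7 counts in pBIC10 libraries, 26, 99 and 40 counts in pBIC libraries and 6, 26, 8 and 11 counts in YC libraries. These are 0.236, 0.0586 and 0.359 CPM in pBIC10, 1.39, 5.60 and 2.14 CPM in pBIC and 0.445, 2.13, 0.566 and 0.784 CPM in YC. The pBIC10 libraries lay below all others, and pBIC overlapped YC through YC replicate 2. Cd70 was 13.3-fold lower in pBIC10 than in pBIC (log2 fold change -3.74 ± 0.793, adjusted p = 0.0033, edgeR). Without pBIC replicate 2, the highest of its group, the log2 fold change was -2.99 (adjusted p = 0.0164).

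Cd70 differed from YC in opposite directions in the lymphoma groups, and both calls passed narrowly. In pBIC10 it was 4.27-fold lower than in YC (log2 fold change -2.10 ± 0.78, adjusted p = 0.0377, edgeR), a call lost without pBIC10 replicate 1 (adjusted p = 0.0832), pBIC10 replicate 2 (adjusted p = 0.127) or YC replicate 2 (-1.43, adjusted p = 0.138), and in females alone it was -2.84 (adjusted p = 0.0405). In pBIC it was 3.11-fold higher than in YC (1.64 ± 0.635, adjusted p = 0.0429), a call lost without pBIC10 replicate 1 (adjusted p = 0.0528), pBIC replicate 2 (0.92, adjusted p = 0.271), YC replicate 1 (adjusted p = 0.115), YC replicate 3 (adjusted p = 0.106) or YC replicate 4 (adjusted p = 0.0978). Without YC replicate 2, the highest of its group, it was 2.29 (adjusted p = 0.0126).

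Tnfsf4, whose product costimulates T cells through Tnfrsf4, did not pass the filter on low counts. It had 1, 0 and 2 counts in pBIC10 libraries, 68, 290 and 5 counts in pBIC libraries and 1, 1, 2 and 6 counts in YC libraries. It was high in 2 of the 3 pBIC libraries and near 0 in all others, and pBIC replicate 3 lay within the range of the YC libraries. Summed over its libraries pBIC10 had 3 counts, pBIC had 363 and YC had 10. The pBIC10 level was 0.00849 of the pBIC level (exact 95% counting interval 0.00174 to 0.025) and 0.302 of the YC level (0.0534 to 1.17), intervals that cover counting error only and not the spread among libraries. In a fit with no filter on low counts, pBIC10 was lower than pBIC (adjusted p = 0.0299, edgeR) and pBIC was higher than YC (adjusted p = 0.0191), and both calls held when each pBIC library was left out in turn, an alternative chosen after seeing the data. Without pBIC replicate 2, the highest, the adjusted p was 0.000415 for pBIC10 against pBIC and 0.00167 for pBIC against YC. The edgeR values for the same comparisons were 0.0407 and 0.0288 without replicate 1, and 6.39e-16 and 1.05e-15 without replicate 3, the lowest. The adjusted p thus depended strongly on which pBIC library was left out, and its size is not stable for this gene.

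Tnfsf8, the ligand of Tnfrsf8, had 3, 0 and 2 counts in pBIC10 libraries, 8, 3 and 0 counts in pBIC libraries and 50, 47, 38 and 66 counts in YC libraries. In CPM the YC libraries stood at 3.71, 3.85, 2.69 and 4.71, against means of 0.0932 ± 0.0889 in pBIC10 and 0.20 ± 0.216 in pBIC (SD, n = 3 each). Every lymphoma library was low and every YC library was high. Tnfsf8 was 37.1-fold lower in pBIC10 than in YC (log2 fold change -5.21 ± 0.83, adjusted p = 0.000202, edgeR) and 18.1-fold lower in pBIC than in YC (-4.17 ± 0.749, adjusted p = 0.000494). Without pBIC10 replicate 1 the first value was -5.92 and without pBIC replicate 1 the second was -5.37, each on few counts. In pBIC10 against pBIC it stood at -1.04 ± 0.99 (adjusted p = 0.459), on 5 against 11 summed counts.

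Tnfsf10 encodes TRAIL, which triggers death receptors. It was read at 3.78, 2.64 and 1.64 CPM in pBIC10 libraries, at 7.93, 2.83 and 4.12 CPM in pBIC libraries and at 4.23, 5.32, 3.61 and 6.63 CPM in YC libraries. The 3 groups overlapped. In the fit of all libraries it passed in no comparison, with log2 fold changes of -0.89 ± 0.446 in pBIC10 against pBIC (adjusted p = 0.149, edgeR), -0.88 ± 0.425 in pBIC10 against YC (adjusted p = 0.0975) and 0.01 ± 0.411 in pBIC against YC (adjusted p = 0.993). In a fit of pBIC10 and YC alone it passed, at -0.90 (adjusted p = 0.0465). The intervals implied by these errors do not show that the groups were alike.

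Levels can be compared between genes only per length, as CPM divided by exon kilobases of the reference annotation. On that scale Ltb was the most abundant ligand transcript in every group, at 135 ± 52.8 CPM per kb in pBIC10, 277 ± 60.7 in pBIC and 163 ± 38.9 in YC (SD). Lta, Tnf and Tnfsf9 followed in that order in all 3 groups. In pBIC10 their means were 3.77 ± 1.30, 3.20 ± 2.38 and 1.21 ± 0.40 CPM per kb, and the first pair did not differ beyond its spread. In pBIC, where Lta (16.5 ± 10.7 CPM per kb), Tnf (14.3 ± 6.60) and Tnfsf9 (9.70 ± 1.73) overlapped, no order among them held against the spread either. In YC they were apart, with Lta at 59.9 ± 10.7, Tnf at 25.1 ± 4.43 and Tnfsf9 at 9.90 ± 1.53 CPM per kb.

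The means of the remaining ligands lay under 4 CPM per kb and changed places between groups. In pBIC10 they ran Tnfsf10 (0.510 CPM per kb), Cd70 (0.259), Tnfsf4 (0.0292) and Tnfsf8 (0.0245), the last pair on 3 and 5 summed counts. In pBIC the order was Tnfsf4 (3.67 ± 4.62), Cd70 (3.62 ± 2.66), Tnfsf10 (0.942 ± 0.504) and Tnfsf8 (0.0524), where Tnfsf4 spanned Cd70 and Tnfsf10 and lay above Tnfsf8. In YC it was Cd70 (1.17 ± 0.924), Tnfsf8 (0.982 ± 0.217), Tnfsf10 (0.939 ± 0.252) and Tnfsf4 (0.0984), with the first 3 within each other's spread.

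Variation among libraries of 1 lymphoma group ran through several ligands at once. In pBIC, replicate 3 was the lowest for Tnf, Lta, Tnfsf4, Tnfsf8 and Tnfsf9 but the highest for Ltb, and replicate 2 was the highest for Tnf, Lta, Cd70 and Tnfsf4. In pBIC10, replicate 3, from the male, was the highest for Tnf, Lta, Ltb and Cd70. YC libraries were tighter for Tnf, with a coefficient of variation of 17.7%, than the pBIC10 (74.3%) and pBIC (46.3%) libraries.

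Among 11797 genes, those with the most similar profile over the 10 libraries were found by the root mean square difference of centred log2 CPM, as a description. Tnf was nearest to Fbxo30 (0.262) and Mdfic (0.302), and Ltb to Dolk (0.138) and Rps15a-ps6 (0.159). Cd82, which encodes a tetraspanin, followed Lta (0.467) at 11.3 ± 2.83 CPM in pBIC10, 36.6 ± 15.9 CPM in pBIC and 141 ± 5.17 CPM in YC libraries, after Slc2a4rg-ps (0.436). Itgal, the alpha chain of the integrin LFA-1, followed Tnfsf9 (0.335) at 51.6 ± 18 CPM in pBIC10, 375.3 ± 156 CPM in pBIC and 325.3 ± 11.7 CPM in YC libraries, and Arid3a came next (0.347). The nearest genes to Cd70 were Creld2 (0.594) and Slc39a4 (0.60), those to Tnfsf8 were Iqgap2 (0.436) and Izumo1r (0.461), and those to Tnfsf10 were Lrch3 (0.285) and Ttc39b (0.288).

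Of the other ligands of the family, Tnfsf13b and Tnfsf14 were lower in pBIC10 than in pBIC. Of 10 listed (Fasl, Cd40lg, Tnfsf11, Tnfsf12, Tnfsf13, Tnfsf13b, Tnfsf14, Tnfsf15, Tnfsf18 and Eda), 6 had enough counts for the test. Of these, 2 fell and 0 rose in pBIC10 against pBIC, with a median log2 fold change of -2.24. Among all genes, 30.7% were called in that comparison, 15.6% higher and 15.1% lower. All 6 estimates were below 0 there in edgeR, DESeq2 and limma-voom, and 3 fell at an unadjusted p under 0.05. The count of 2 was 4 without pBIC10 replicate 1. In pBIC10 against YC 4 fell and 0 rose by each of these tools, adjusted or not (median -4.76 with genes at 0 set to their bound), and in pBIC against YC 3 fell and 1 rose (median -1.64). The share of all genes called was 51.7% in pBIC10 against YC, with 24.8% higher and 26.9% lower. In pBIC against YC it was 54.1%, with 26.4% higher and 27.7% lower. Tnfsf13b, which encodes the B cell survival factor BAFF, averaged 0.731 ± 0.301 CPM in pBIC10, 9.33 ± 4.59 CPM in pBIC and 0.475 ± 0.313 CPM in YC libraries. It was 12.6-fold lower in pBIC10 than in pBIC (log2 fold change -3.65 ± 0.561, adjusted p = 0.000363, edgeR) and 19.2-fold higher in pBIC than in YC (4.26 ± 0.532, adjusted p = 3.49e-05).

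Tnfsf14, the neighbour of Cd70, had 0 counts for pBIC10, 75 for pBIC and 112 for YC. With 3 counts over the group as the floor, summed counts put it at least 24.3-fold lower in pBIC10 than in pBIC. The same bound against YC was 37.1-fold. These bounds leave out the spread among libraries, which ran from 0.268 to 2.32 CPM in pBIC. All 3 of the neighbours Tnfsf9, Cd70 and Tnfsf14 were thus lower in pBIC10 than in pBIC with no overlap. Tnfsf15, the neighbour of Tnfsf8, did not pass the filter, with 6 summed counts for pBIC10, 173 for pBIC and 11 for YC. Cd40lg, a ligand of helper T cells, had 1 count for pBIC10, 3 for pBIC and 192 for YC. Fasl, the death ligand of cytotoxic cells, had 2 counts for pBIC10, 16 for pBIC and 105 for YC.

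Markers of other cell types differed between the groups as well. The 10 T cell markers summed to 5.39 to 9.08 CPM in pBIC10, 42.6 to 85.5 CPM in pBIC and 153 to 457 CPM in YC libraries, and 10 of 10 were lower in pBIC10 than in pBIC and than in YC, and 9 of 10 in pBIC than in YC. None of the 10 was at 0 in any group. Of all genes tested, 15.1% were called lower in pBIC10 against pBIC, 26.9% in pBIC10 against YC and 27.7% in pBIC against YC. These shares also stand beside the marker counts given below. Cd8b1 averaged 26.84 CPM in pBIC and 23.02 CPM in YC libraries. Each of the other T cell markers had a lower mean in pBIC than in YC. The pBIC sums thus lean on Cd8b1, whose highest value in a pBIC library was 44.88 CPM. In the pBIC libraries the T cell sum was 42.6, 48.0 and 85.5 CPM, highest in replicate 3, where Ltb was highest, Tnf, Lta, Tnfsf4, Tnfsf8 and Tnfsf9 were lowest, and Cd70 and Tnfsf10 lay between the others. NK cell markers summed to 1.13 to 2.42 CPM in pBIC10, 4.50 to 10.7 CPM in pBIC and 25.8 to 60.7 CPM in YC libraries, with 2 of 6 lower in pBIC10 than in pBIC and none of the 6 at 0 in any group.

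Monocyte and macrophage markers summed to 5.80 to 10.7 CPM in pBIC10, 8.35 to 52.2 CPM in pBIC and 85.7 to 140 CPM in YC libraries. Of 7 such markers, 2 were lower in pBIC10 than in pBIC and all 7 than in YC, and Fcgr1 was at 0 in pBIC10. Their sum in the pBIC libraries was 21.0, 52.2 and 8.35 CPM, highest in replicate 2, where Tnf, Lta, Cd70 and Tnfsf4 were highest, Tnfsf10 was lowest, and Ltb, Tnfsf8 and Tnfsf9 lay between the others. Lyz2 alone gave 44.0 CPM of the replicate 2 sum, beside a median of 5.95 CPM over the pBIC libraries. That peak of the sum thus rests on Lyz2 and is not shared by the marker list as a whole. Dendritic cell markers summed to 11.7 to 31.3 CPM in pBIC10, 11.8 to 18.2 CPM in pBIC and 62.6 to 84.6 CPM in YC libraries, and 0 of 6 passed in pBIC10 against pBIC. Plasma cell markers summed to 227 to 258 CPM in pBIC10, 333 to 550 CPM in pBIC and 1200 to 2690 CPM in YC libraries. Neutrophil markers summed to 3.33 to 8.43 CPM in pBIC10, 1.66 to 21.8 CPM in pBIC and 24.5 to 57.8 CPM in YC libraries, and erythroid markers to 630 to 1630 CPM in pBIC10, 32.2 to 662 CPM in pBIC and 184 to 543 CPM in YC libraries. The part of these cells in the ligand differences was not tested.

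**Figure D3:**
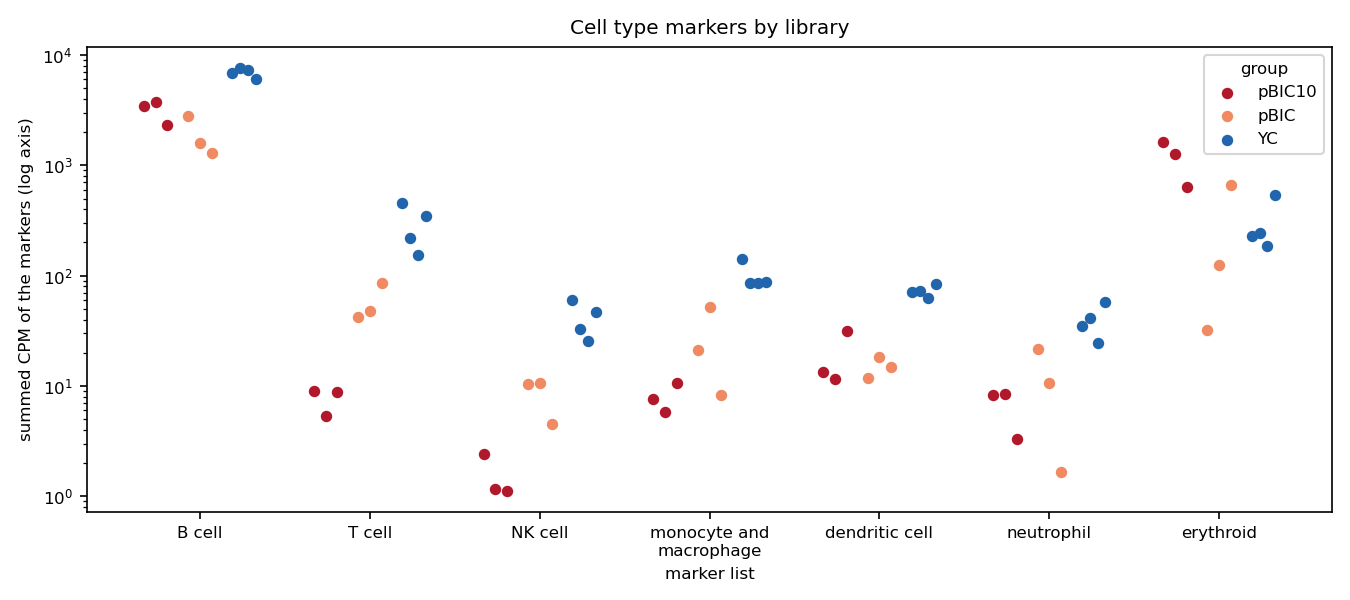
Summed CPM of 7 cell type marker lists in each library of pBIC10, pBIC and YC, on a log axis; points are libraries. T cell markers lie at 5.39 to 9.08 CPM in pBIC10, 42.6 to 85.5 CPM in pBIC and 153 to 457 CPM in YC libraries, while B cell markers lie at 1300 CPM or more in all of them.

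Cd27 and Ltbr were scarce in both lymphomas beside YC. Of 13 receptors listed, 12 had enough counts, and the soluble decoy Tnfrsf11b had 0 counts in every library. In pBIC10 against pBIC 2 rose and 0 fell (median log2 fold change -0.05), with 0 also by DESeq2 and limma-voom and 1 lower at an unadjusted p under 0.05. The count was 1 without pBIC10 replicate 2, pBIC replicate 2, pBIC replicate 3 or YC replicate 3. Against YC, 6 fell and 0 rose in pBIC10, with 0 higher also at an unadjusted p under 0.05 and by DESeq2 and limma-voom (median -1.22), and 4 fell and 1 rose in pBIC (median -0.72). The share of all genes called was 30.7% in pBIC10 against pBIC, 51.7% in pBIC10 against YC and 54.1% in pBIC against YC. Taken in both directions together, the receptor counts against YC are thus not above what all genes gave, but the receptors called leaned to lower. Of all genes, 26.9% were called lower and 24.8% higher in pBIC10 against YC. In pBIC against YC, 27.7% were called lower and 26.4% higher. The number of receptors called was 3 without YC replicate 4 in each comparison with YC, and 3 without YC replicate 1 in pBIC against YC.

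Cd27, the receptor of CD70, averaged 0.516 ± 0.134 CPM in pBIC10, 0.969 ± 0.358 CPM in pBIC and 8.92 ± 4.89 CPM in YC libraries. It was 17.0-fold lower in pBIC10 than in YC (log2 fold change -4.08 ± 0.547, adjusted p = 5.76e-05, edgeR) and 9.16-fold lower in pBIC than in YC (-3.20 ± 0.512, adjusted p = 0.000216). Tnfrsf8, the receptor of Tnfsf8, averaged 9.02 ± 7.31 CPM in pBIC10, 1.39 ± 0.714 CPM in pBIC and 34.6 ± 7.70 CPM in YC libraries. It was 6.44-fold higher in pBIC10 than in pBIC (2.69 ± 0.802, adjusted p = 0.0251) with overlap, since 1 pBIC10 library stood at 0.615 CPM. It no longer passed on leaving out pBIC10 replicate 1 (adjusted p = 0.125), pBIC10 replicate 2 (0.118), pBIC replicate 2 (0.134), pBIC replicate 3 (0.104) or YC replicate 3 (0.0513). In pBIC it was 24.8-fold lower than in YC (-4.63 ± 0.83, adjusted p = 0.00071).

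Tnfrsf26, listed here beside the mouse TRAIL receptors though its binding of TRAIL is not shown by these data, had 29 counts for pBIC10, 2 for pBIC and 521 for YC. Its pBIC10 level was 14.9 times that of pBIC (exact 95% counting interval 3.77 to 129, which leaves out the spread among libraries). In the fit over libraries it was higher in pBIC10 than in pBIC (adjusted p = 0.0041, edgeR), with no overlap. Both pBIC counts came from 1 library. Ltbr, the lymphotoxin beta receptor, is known mainly from stromal and myeloid cells, and it had 3 counts for pBIC10, 5 for pBIC and 47 for YC. Among receptors that passed in no comparison, Tnfrsf4 averaged 7.85 ± 3.11 CPM in pBIC10, 7.49 ± 2.49 CPM in pBIC and 7.19 ± 1.45 CPM in YC libraries. The TRAIL death receptor Tnfrsf10b stood at 2.71 ± 0.0665 CPM in pBIC10, 2.76 ± 1.88 CPM in pBIC and 3.71 ± 0.951 CPM in YC libraries. Tnfrsf4 and Tnfrsf10b were chosen after their values were seen.

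**Figure D4:**
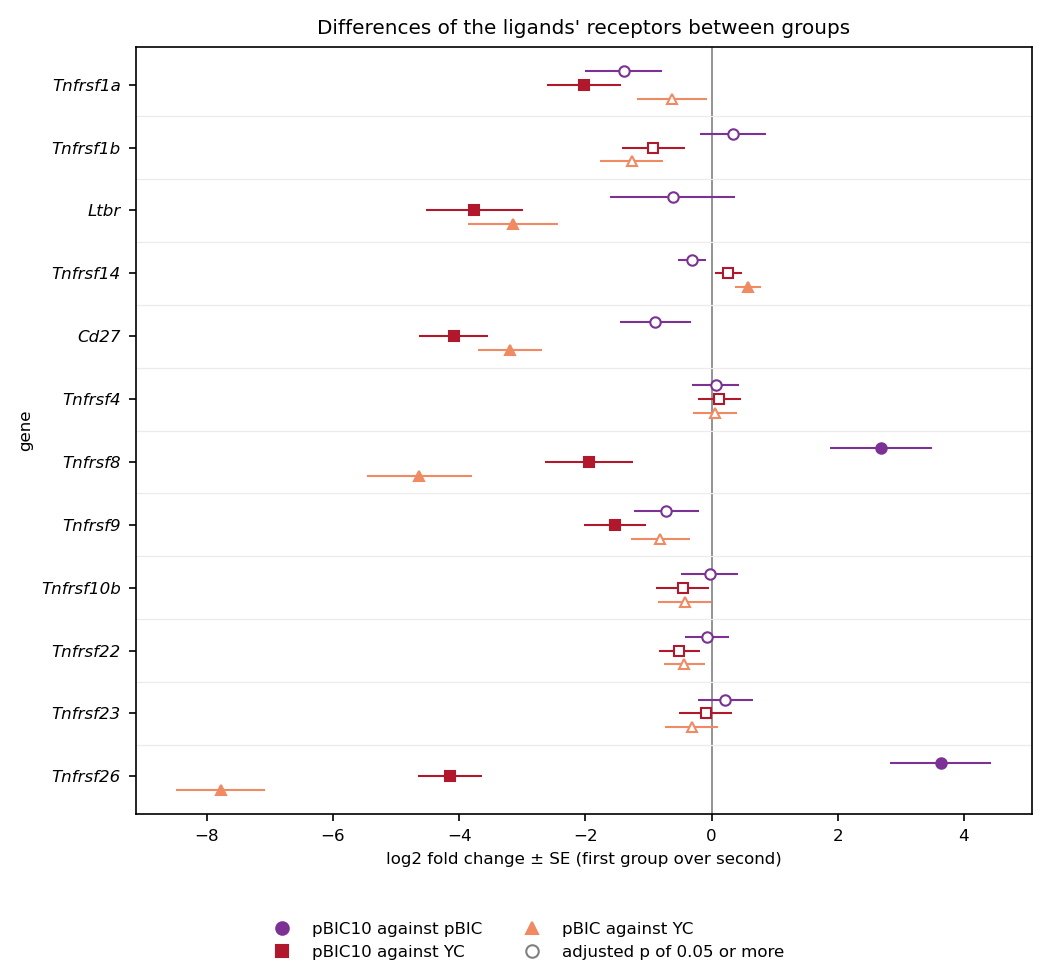
Log2 fold change ± SE of the 12 tested receptors in pBIC10 against pBIC, pBIC10 against YC and pBIC against YC; filled points have an adjusted p under 0.05 and open points do not. Cd27 lies at -4.08 and -3.20 against YC, and Tnfrsf8 lies at 2.69 in pBIC10 against pBIC and at -4.63 in pBIC against YC.

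Adaptors and signal proteins of these receptors moved in both directions in pBIC10 against pBIC, and most of those called against YC fell. Of 18 tested, 4 rose and 6 fell in pBIC10 against pBIC (median log2 fold change -0.25), 2 rose and 10 fell in pBIC10 against YC (median -0.54), and 1 rose and 10 fell in pBIC against YC (median -0.66). Among all genes tested, 30.7%, 51.7% and 54.1% were called in these comparisons, in that order. By direction, 15.6%, 24.8% and 26.4% were called higher, and 15.1%, 26.9% and 27.7% were called lower. The first count of 10 was 5 without pBIC10 replicate 1 or without replicate 2. Traf3, which restrains noncanonical NF-κB signalling, averaged 284.9 ± 14.8 CPM in pBIC10, 98.1 ± 36.3 CPM in pBIC and 91.9 ± 3.28 CPM in YC libraries. It rose 2.90-fold in pBIC10 against pBIC (1.54 ± 0.234, adjusted p = 0.000342, edgeR). Traf1, itself an NF-κB target, averaged 18.3 ± 6.34 CPM in pBIC10, 68.5 ± 26.4 CPM in pBIC and 160.6 ± 26 CPM in YC libraries, an order shared with Tnf and Lta. It fell 3.75-fold in pBIC10 against pBIC (-1.91 ± 0.322, adjusted p = 0.000827). Casp8, the initiator caspase below death receptors, was 2.19-fold higher in pBIC10 than in pBIC (1.13 ± 0.204, adjusted p = 0.00113), with means of 73.8 ± 12.4 CPM for pBIC10, 33.7 ± 8.54 CPM for pBIC and 67.1 ± 4.88 CPM for YC.

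Genes that shed TNF from the membrane or control AU-rich mRNAs, such as that of Tnf, were tested as 12 genes. In pBIC10 against pBIC 6 rose and 1 fell (median log2 fold change 0.64), in pBIC10 against YC 3 rose and 3 fell (median 0.14), and in pBIC against YC 1 rose and 5 fell (median -0.28). Over all genes tested, 30.7% were called in pBIC10 against pBIC, with 15.6% higher and 15.1% lower. In pBIC10 against YC 51.7% of all genes were called, 24.8% higher and 26.9% lower. In pBIC against YC 54.1% were called, 26.4% higher and 27.7% lower. Taken in both directions together, the list counts against YC are close to these shares, but in pBIC against YC the calls leaned to lower. Zfp36l2, an RNA-binding protein that destabilises AU-rich mRNAs, stood at 1296 ± 239 CPM in pBIC10, 112 ± 52.3 CPM in pBIC and 373.6 ± 42.7 CPM in YC libraries. It was 11.6-fold higher in pBIC10 than in pBIC (3.53 ± 0.293, adjusted p = 3.87e-06, edgeR) and 3.47-fold higher than in YC (1.80 ± 0.248, adjusted p = 7.5e-05).

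Its relative Zfp36, known for destabilising Tnf mRNA and chosen here after its values were seen, averaged 654.4 ± 167 CPM in pBIC10, 184.5 ± 118 CPM in pBIC and 948.3 ± 466 CPM in YC libraries. Its log2 fold change of 1.83 ± 0.545 in pBIC10 against pBIC passed (adjusted p = 0.025, edgeR), but not without pBIC10 replicate 1 (adjusted p = 0.105), 2 (0.111) or 3 (0.0525), nor without pBIC replicate 3 (0.0641). Adam17, the sheddase of TNF, averaged 49.9 ± 8.15 CPM in pBIC10, 112.9 ± 22.3 CPM in pBIC and 98.0 ± 13.6 CPM in YC libraries. It fell 2.26-fold in pBIC10 against pBIC (-1.18 ± 0.197, adjusted p = 0.000661). Rhbdf1, a pseudoprotease partner of Adam17, averaged 43.8 ± 3.60 CPM in pBIC10, 5.68 ± 3.27 CPM in pBIC and 24.3 ± 6.79 CPM in YC libraries. It rose 7.70-fold in pBIC10 against pBIC (2.94 ± 0.415, adjusted p = 0.000239).

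**Figure D5:**
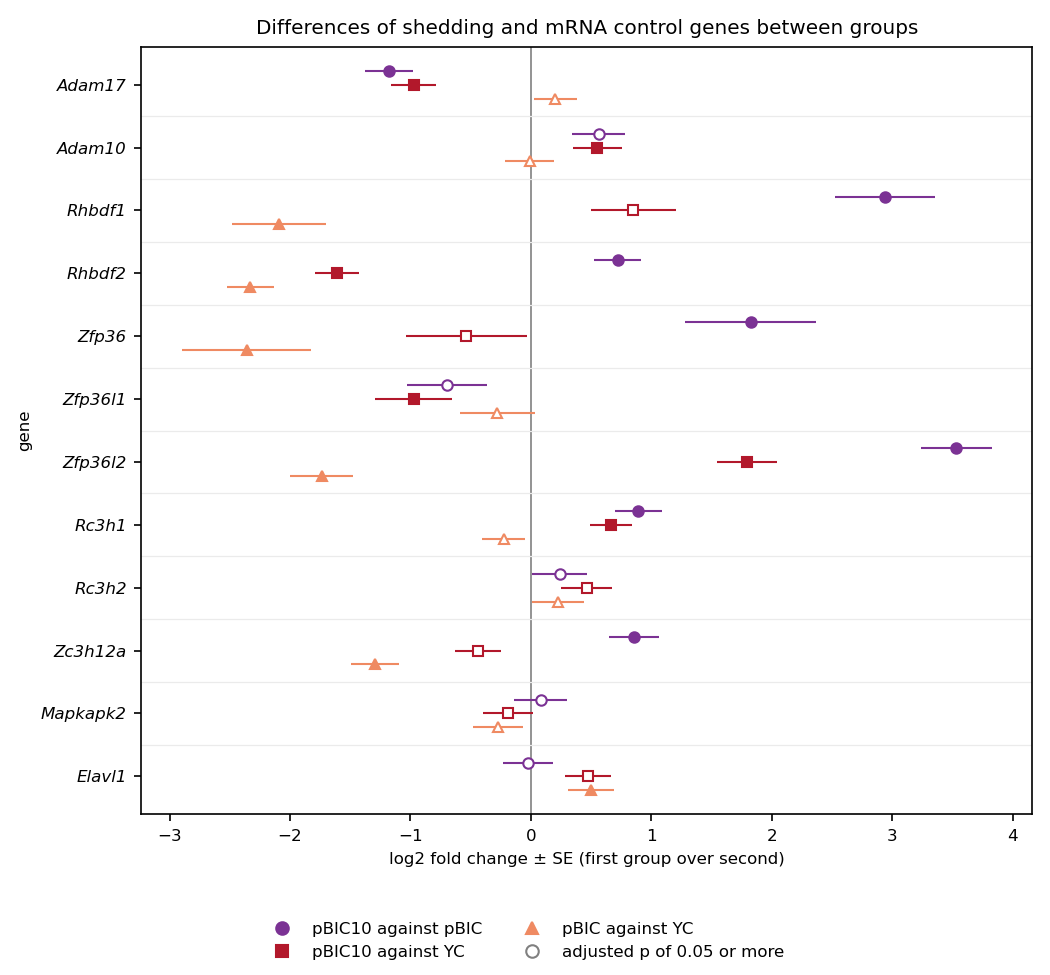
Log2 fold change ± SE of the 12 shedding and mRNA control genes in pBIC10 against pBIC, pBIC10 against YC and pBIC against YC; filled points have an adjusted p under 0.05 and open points do not. Zfp36l2 (3.53) and Rhbdf1 (2.94) lie above 0 in pBIC10 against pBIC, and Adam17 (-1.18) lies below.

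A list of 16 genes held subunits of NF-κB, factors of the NFAT and AP-1 families, Egr1, Irf4 and the inhibitors of NF-κB Nfkbia, Nfkbib and Nfkbie. Of the 16, 2 rose and 6 fell in pBIC10 against pBIC (median log2 fold change -0.62), 1 rose and 8 fell in pBIC10 against YC (median -0.78), and 1 rose and 8 fell in pBIC against YC (median -0.41). All genes tested gave calls for 30.7%, 51.7% and 54.1% in these comparisons, in that order. Taken in both directions together, the list counts against YC are close to those shares, but most list genes called there were lower. Of all genes, 26.9% were called lower and 24.8% higher in pBIC10 against YC. In pBIC against YC, 27.7% were called lower and 26.4% higher. The 6 that fell in pBIC10 against pBIC include the inhibitors Nfkbie (-1.05, adjusted p = 0.0197, edgeR) and Nfkbib (-0.61, adjusted p = 0.0454), named after their values were seen. The first count of 8 was 4 without pBIC10 replicate 1 and 5 without pBIC10 replicate 2. Batf, an AP-1 family factor of activated lymphocytes, averaged 7.04 ± 1.19 CPM in pBIC10, 92.4 ± 50.4 CPM in pBIC and 51.8 ± 12.4 CPM in YC libraries. It fell 13.1-fold in pBIC10 against pBIC (-3.71 ± 0.373, adjusted p = 2.02e-05, edgeR). Nfatc2, a calcium-regulated factor, averaged 6.26 ± 0.798 CPM in pBIC10, 17.4 ± 2.82 CPM in pBIC and 49.7 ± 5.28 CPM in YC libraries, in the group order of Tnf and Lta, and fell 2.78-fold in pBIC10 against pBIC (-1.48 ± 0.203, adjusted p = 0.000156).

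Nfkb2, the precursor of the noncanonical NF-κB subunit, averaged 84.8 ± 1.98 CPM in pBIC10, 140.2 ± 8.31 CPM in pBIC and 268.5 ± 45.7 CPM in YC libraries. It fell 1.65-fold in pBIC10 against pBIC (log2 fold change -0.73 ± 0.165, adjusted p = 0.00495, edgeR). Fos, an AP-1 subunit induced within minutes of stimulation, averaged 1503 ± 674 CPM in pBIC10, 159.9 ± 104 CPM in pBIC and 966 ± 662 CPM in YC libraries, and rose in pBIC10 against pBIC (3.23 ± 0.711, adjusted p = 0.00526).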

How the data were processed

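Sorted splenic B cells of 10 mice were read as single-end poly(A) RNA, per the labels. Values are raw counts of reads per gene as deposited, made with featureCounts after FastQC on GRCm39 per the submitters' processing notes. The sources used here name no aligner, annotation, strand setting or version. Every column matched 1 sample, with 0 left over, and no 2 libraries held the same counts.

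The filterByExpr rule of edgeR 4.0.16 under R 4.3.3 kept 17718 of 46316 genes, and TMM-scaled counts of the 10 libraries entered a robust quasi-likelihood fit (two-sided) with a coefficient for each group. Adjusted p-values (Benjamini-Hochberg) run over all genes tested in a comparison, and calls are under 0.05. The SE approximates as the log2 fold change over the root of its F statistic. CPM are TMM-scaled over the tested genes. Whether mice of a group were littermates or share tumours is not stated, so p-values measure the spread between these libraries. The pipeline was tested on simulated data.

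The members and lists were chosen with earlier results of these data known. List genes qualified as up to 3 called genes per direction, list and comparison, by adjusted p. Promoters came from RefSeq (GRCm38.p6) for 5 of the 8 genes. Lengths and neighbours came from the same earlier build. Alternatives were other scalings, filters, thresholds, DESeq2 1.42.0, voom of limma 3.58.1, sex as a covariate, fits of 2 groups or of females alone, antigen receptor genes left out, and leaving out each library. Figures used matplotlib 3.10.9. The summed germinal centre marker list is not reported here.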

Additional observations from a re-analysis of the deposited data

Results flagged for a closer look

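Among 51 groups of 4 YC libraries (members, named list genes and marker sums), 1 library stood far from the other 3 in the following, and chance alone gives about 1 in 20. Tnfsf9 was highest in YC replicate 2, at 15.7 CPM, where Batf (70.3 CPM) and Nfkb2 (337 CPM) were also far from the others. YC replicate 1 stood apart for Rhbdf2 (49.2 CPM), Nfatc3 (253 CPM) and the monocyte and macrophage marker sum (140 CPM), and YC replicate 4 for the erythroid marker sum (543 CPM).

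The differences of Ltb and Cd70 from YC had opposite signs in the lymphoma groups. Ltb was at -0.27 in pBIC10 and 0.76 in pBIC on the log2 scale, and Cd70 was at -2.10 in pBIC10 and 1.64 in pBIC. The difference itself is the comparison of pBIC10 with pBIC, with log2 fold changes of -1.04 for Ltb (adjusted p = 0.0135, edgeR) and -3.74 for Cd70 (adjusted p = 0.0033, edgeR).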

How the results depend on the processing

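Over 481 values of the 7 tested ligand genes under the alternatives, 435 kept direction and side of the threshold, 24 lost a call, 7 gained one and 15 turned sign. The calls of Tnf, Lta, Cd70 and Tnfsf9 in pBIC10 against pBIC held under all 23 alternatives, with adjusted p up to 0.0332, 0.021, 0.0187 and 0.000931 in that order of genes. At an adjusted p under 0.01 the genes called in pBIC10 against pBIC were 3145, and with a 2-fold minimum 3511, against 5440. In pBIC against YC a 2-fold minimum left 6300 of 9585 genes, and an adjusted p under 0.01 left 2 of 4 ligand genes. Leaving out each library gave 3884 to 6052, 7969 to 10128 and 8331 to 9949 genes in pBIC10 against pBIC, pBIC10 against YC and pBIC against YC, and 5 to 6, 4 to 6 and 2 to 6 ligand genes. The Ltb difference of pBIC10 from YC passed in females alone (-0.72, adjusted p = 0.0394, edgeR). Cd70 in pBIC10 against YC missed with limma-voom (adjusted p = 0.0779) and with sex as a covariate (adjusted p = 0.0552, edgeR), and in pBIC against YC with DESeq2 size factors (adjusted p = 0.0512, edgeR), sex (adjusted p = 0.0607) and females alone (adjusted p = 0.098). Tnf in pBIC against YC passed with limma-voom (adjusted p = 0.0371), in a fit of 2 groups (adjusted p = 0.0455, edgeR) and in females alone (adjusted p = 0.0482). Counts over lists moved in pBIC10 against pBIC in a fit of 2 groups (other ligands 1 of 2, receptors 0 of 2, adaptors 5 of 10, factors 4 of 8). In that comparison receptors also gave 1 by limma-voom and with no filter, and adaptors 6 in females alone. In pBIC10 against YC the shedding and mRNA control list gave 10 in a fit of 2 groups, beside 6. An adjusted p under 0.01 left receptors 1, adaptors 5 and factors 4 in pBIC10 against pBIC and receptors 3 in pBIC10 against YC. A 2-fold minimum left adaptors, shedding genes and factors 4 each in pBIC10 against pBIC, shedding genes 2 and factors 5 in pBIC10 against YC, and adaptors 5 in pBIC against YC. The cause of these shifts was not tested.

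Sign changes touched only uncalled values. Leaving out single libraries gave -1.74 to 0.17 for Tnfsf8 in pBIC10 against pBIC, and in pBIC against YC -0.17 to 0.092 for Tnfsf9 and -0.51 to 0.35 for Tnfsf10. Positive values of Tnfsf8 came without pBIC replicate 1. In pBIC against YC, Tnfsf9 was 0.023 with no filter on low counts and positive without pBIC replicate 2, pBIC replicate 3 or YC replicate 2. In the same comparison Tnfsf10 was -0.041 with DESeq2 size factors in edgeR and -0.041 with DESeq2, -0.084 with limma-voom, -0.012 with a minimum of 1 CPM, -9.8e-05 in a fit of 2 groups, -0.109 in females alone and -0.163 with a sex term, and negative without pBIC replicate 1, YC replicate 1 or YC replicate 3. With no filter the median of all genes moved to -0.26 in pBIC10 against YC and to -0.33 in pBIC against YC. No paired analysis was possible because replicate numbers were given in accession order and only name the samples. Depth limits Cd70, Tnfsf4 and Tnfsf8, which rest on few counts.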
